A study of Mus musculus with 16 samples.

Results

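The messages carried by heavy polysomes were compared with those of the whole cytoplasm in hepatocytes of mice on the DDC diet. The comparison rests on 4 of the 16 libraries of the study: 2 of heavy polysome RNA, from preparations B and C, and 2 of cytoplasmic RNA, from preparations C2 and D2. The members were taken by their labels. All mice were of the FVB strain, a white inbred strain. They received either normal chow or, for 4 weeks, DDC, a feed additive used in mice to injure the liver. Hepatocytes, the main cell of the liver, were isolated with cycloheximide present, which stalls ribosomes on their messages, and a sucrose gradient then separated RNA by how many ribosomes it carried: 1 in the monosome fraction, 2 to 4 on light polysomes and more than 5 on heavy polysomes. Polyadenylated RNA was sequenced. The chow libraries of the same kinds (cytoplasm CH1 and CH3, heavy polysomes CH1_CH2 and CH3_CH4) come from other preparations and are set beside the DDC values. The labels do not say whether libraries came from separate animals, and the chow fraction names join a pair of preparation names, so p-values measure the spread between these samples, which may be technical. The age and sex of the mice are not given in the sources used here.

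A message is read by several ribosomes at a time, and how many it carries depends on how often ribosomes start on it and on how long its reading frame is. Short frames have room for few ribosomes even when they are read constantly. Messages for ribosomal proteins and other parts of the translation machinery begin with a run of pyrimidines, called a TOP motif, through which growth signals switch their loading. Ferritin messages are held back by an iron-responsive element, stress messages such as Atf4 by upstream reading frames, and many cytokine and growth-factor messages are short-lived through AU-rich stretches in the 3′ UTR.

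Values are FPKM (fragments scaled to transcript length and library size) summed over the transcripts of each gene, and differences are of log2(FPKM + 1), heavy polysomes minus cytoplasm, which makes changes at low levels look smaller than they are. A gene was called at an adjusted p under 0.05 in limma with Benjamini-Hochberg adjustment. The deposited values did not put the pools on a common total: they summed to 446462 and 373976 FPKM in cytoplasm and to 1089500 and 855954 FPKM on heavy polysomes. A single fragment per kilobase was worth 0.0215 and 0.0157 FPKM in cytoplasm and 0.0704 and 0.0396 FPKM on heavy polysomes, so low values are coarser there. In the cytoplasmic libraries 9664 and 9874 genes reached 1 FPKM, against 8989 and 9050 on heavy polysomes. The correlation across genes was 0.979 between the cytoplasmic replicates and 0.953 between those of heavy polysomes. The heavy polysome libraries stood apart in injury and metabolic genes. Lipocalin Lcn2 was at 9698 FPKM in heavy library 1 and 21920 in heavy library 2, Ly6d at 1612 and 7274, keratin Krt18 at 771 and 2471, and the globin gene Hbb-bs at 6.12 and 41.9. Gnmt, the main glycine methyltransferase of the liver, ran the other way at 11440 and 2758 FPKM.

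Of 10101 genes tested, 3136 (31.0%) were called higher on heavy polysomes and 2340 (23.2%) lower, or 54.2% in either direction, with a median difference of 0.15 over all genes. This split follows the scaling of the libraries. With every library brought to the same total FPKM, 878 genes were called higher and 5234 lower (median -0.86). With the median ratio over genes the counts were 2164 and 3348 (median -0.25), and with quantile normalization 2624 and 2520 (median 0.0006). Under all 4 scalings 859 genes were called higher and 1938 lower. A rise or fall below is one on the deposited scale, where the heavy libraries have the larger totals, unless another scaling is named. A rise there need not be a larger share of the pool, which the values with equal totals show. Genes called the same way under all 4 scalings are named as such. Among the largest rises were genes of metabolism, mitochondria and phagocytes, and among the largest falls genes of membrane transporters, lipid synthesis and mitochondrial transcripts.

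**Figure D1:**
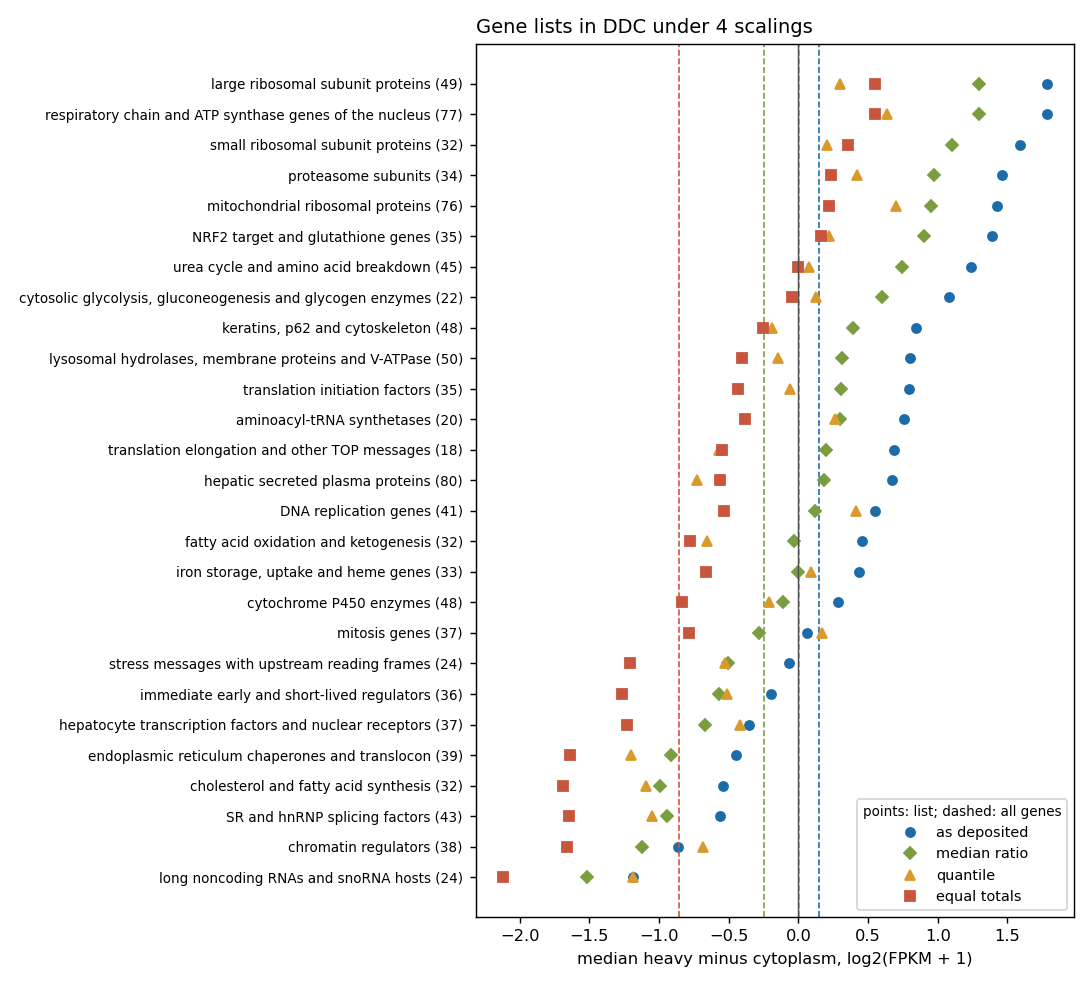
Median difference between heavy polysomes and cytoplasm in DDC (x axis, log2(FPKM + 1)) for each gene list (y axis, with the number of genes tested), under 4 scalings of the libraries; dashed lines mark the median of all genes under each. Ribosomal protein, respiratory chain and proteasome lists lie right of the dashed line of every scaling, while long noncoding RNAs, chromatin regulators and SR and hnRNP factors lie left of it.

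Ribosomal protein messages were higher on heavy polysomes as a group. Of 32 small-subunit genes 28 rose and none fell (median 1.59), and of 49 large-subunit genes 43 rose and none fell (median 1.79). With equal totals 13 and 23 of them were called higher and 3 in each list lower, with medians of 0.36 and 0.55 against -0.86 over all genes. Rps15, a protein of the small subunit, was at 672 and 495 FPKM in cytoplasm and at 5557 and 4444 FPKM on heavy polysomes. The heavy libraries lay far above the cytoplasmic ones, a rise by 3.10 (SE 0.27, adjusted p = 1.29e-05), or 8.60-fold. Fau, which encodes a small-subunit protein fused to a ubiquitin-like one, rose by 3.22 (SE 0.25, adjusted p = 1.2e-05) from 192 and 158 to 2024 and 1314 FPKM. Among large-subunit genes, Rpl8 stood at 485 and 354 FPKM in cytoplasm and at 2919 and 2441 on heavy polysomes, a difference of 2.69. Rpl27 rose by 2.85, from 122 and 118 to 1039 and 739 FPKM. These 4 genes were called higher under all 4 scalings. Rps24 rose less, by 1.15 (adjusted p = 0.0043), and its sign turned with equal totals (-0.09) and quantile normalization (-0.34). Ribosomal protein genes have many processed pseudogenes of nearly the same sequence, and whether reads were split between copies was not tested. Of 187 processed pseudogenes tested, whatever their parent gene, 108 were called higher and 7 lower. Over all genes 31.0% were called higher and 23.2% lower.

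The first 30 bases of 3 of these messages in GENCODE M21 (GRCm38) show the pyrimidine run near the start that the TOP motif is known for. Capitals mark the longest run of C and T; the genes lie at chr10:80292453-80294114 (plus strand, Rps15), chr19:6057844-6059524 (plus strand, Fau) and chr15:76904078-76906314 (minus strand, Rpl8).
Rps15: gtaCTTCCTTTTCCgagtaaccgccaagat
Fau: aCTTCTTCCTCTTTCTTgactccatcttcg
Rpl8: ctaTTTCCTCTTTCggccttgcttgccggc
Across coding genes, annotated starts with C followed by 4 bases of C or T were found in 215 genes (2.53%). Only 7 ribosomal protein genes (8.97%) met this rule and 71 did not, and the 3 starts shown above do not meet it. The medians of the 215 genes therefore do not measure TOP messages as a class. Their median difference was 0.34, against 0.13 for the others, and 37.2% were called higher against 31.1%. Without the ribosomal protein genes the medians were 0.31 and 0.11.

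Other messages of the translation machinery did not follow the ribosomal proteins uniformly. Of 18 elongation factor and further TOP messages 8 rose and 3 fell (median 0.69, and -0.55 with equal totals). Pabpc1, which encodes the poly(A)-binding protein and is itself a TOP message, was at 144 and 128 FPKM in cytoplasm, 67.4 and 120 in monosomes, 24.7 and 12.8 on light polysomes and 9.5 and 14.3 on heavy polysomes. Both heavy libraries lay more than 100 FPKM below the cytoplasmic ones. The message fell by 3.43 (SE 0.36, adjusted p = 2.64e-05), called under all 4 scalings. Its 5′ UTR holds an A-rich stretch to which its own protein is known to bind. In the annotated transcript the stretch at bases 82 to 111 reads as follows, with runs of A in capitals (gene at chr15:36595661-36609668, minus strand).
Pabpc1: AAAAAAAAtctAAAAAAtcctttgAAAAAA
Rack1, a scaffold protein of the small subunit, rose by 2.13 (adjusted p = 7.64e-05) from 207 and 176 to 935 and 756 FPKM. Eef1a1, which brings aminoacyl-tRNA to the ribosome, was at 1696 and 1569 FPKM in cytoplasm and at 2017 and 2664 on heavy polysomes (difference 0.51, adjusted p = 0.248; -0.73 with equal totals and -0.77 with quantile normalization). Eef2, the translocation factor, stood at 279 and 234 against 643 and 498 FPKM (difference 1.15, adjusted p = 0.0061, with signs turned to -0.09 with equal totals and -0.32 with quantile normalization). Its call was lost with the median ratio (0.65, adjusted p = 0.0775) and without cytoplasmic library 2 (1.02, adjusted p = 0.0503). Tpt1 differed by 0.38 (adjusted p = 0.263), and by -0.86 with equal totals, -0.12 with the median ratio and -1.10 with quantile normalization.

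Among 35 initiation factor genes 17 rose and 10 fell, with a median of 0.79 that turned to -0.44 with equal totals and -0.06 with quantile normalization. The falls were near the share over all genes (23.2%) and the rises above it (31.0%). Eif6, which keeps ribosomal subunits apart, rose from 68.2 and 49 to 461 and 468 FPKM, by 2.98 (SE 0.24, adjusted p = 1.2e-05). Eif3k, a small subunit of the eIF3 complex, rose by 2.75 from 38 and 31.7 to 245 and 234 FPKM. Eif3a, the large scaffold of the same complex, was at 18.3 and 23.9 FPKM in cytoplasm and at 1.74 and 3.33 FPKM on heavy polysomes and fell by 2.67 (SE 0.37, adjusted p = 0.000118). Members of 1 complex thus lay on opposite sides. Their coding lengths are 654 bases (Eif3k) and 4032 bases (Eif3a), and their 3′ UTRs are 35 and 964 bases. What sets them apart was not tested. Eif5 fell by 1.64. All 4 calls held under the 4 scalings. Of 20 cytosolic aminoacyl-tRNA synthetase genes 13 rose and 1 fell (median 0.76, and -0.38 with equal totals, under which none was higher and 5 were lower).

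The pool in which a message reached its highest level moved with the annotated length of its reading frame. Lengths are those of the most abundant annotated transcript and can fall short of the full frame. Apob, which encodes a very large protein, was placed at 1233 bases. The bins of short frames may therefore hold genes with longer ones, and how many was not tested. Among 5086 genes at 10 FPKM or more in a pool, the highest mean was in heavy polysomes for 2442, light polysomes for 1020, cytoplasm for 877 and monosomes for 747. With equal totals the counts were 1161, 1009, 2080 and 836. For coding lengths of 225 bases or less, 57.8% of 128 such genes peaked on light polysomes and 26.6% on heavy polysomes. From 225 to 300 bases the shares were 67.6% and 23.7%. Between 600 and 900 bases they had turned to 20.8% and 52.8%, and above 3600 bases no gene of 47 peaked on light polysomes and 40.4% peaked in cytoplasm. With equal totals the light and heavy shares were 52.3% and 9.38% up to 225 bases, 73.6% and 9.46% from 225 to 300 bases and 19.8% and 28.9% from 600 to 900 bases, where 37.6% peaked in cytoplasm. The median difference between heavy polysomes and cytoplasm was 0.35 for the shortest frames, highest at 0.96 from 300 to 375 bases, -0.03 from 1200 to 1800 bases and -0.59 above 3600 bases. Light polysomes exceeded heavy polysomes in their difference from cytoplasm up to 375 bases (medians of 1.32 and 0.63 from 225 to 300 bases).

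**Figure D2:**
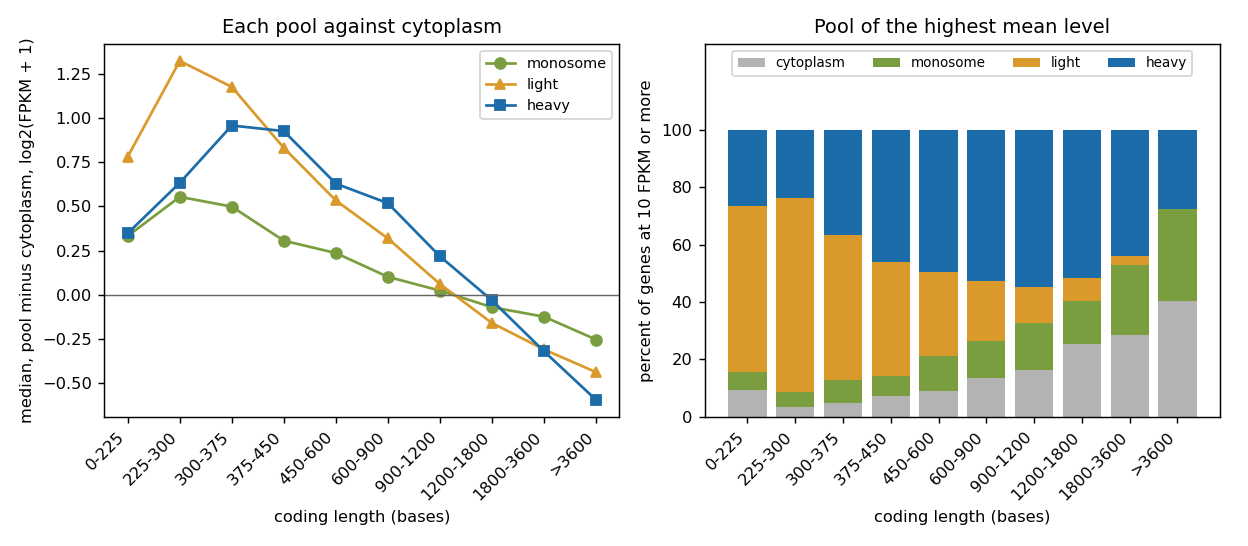
Left, median difference from cytoplasm (log2(FPKM + 1)) of monosomes, light and heavy polysomes in DDC by coding length in bases. Right, share of genes at 10 FPKM or more whose mean level was highest in each pool; light polysomes hold the largest share up to 375 bases and heavy polysomes from 375 to 3600 bases in the values as deposited.

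Rpl41, a ribosomal protein of 25 codons, lies at the shortest end. It peaked in monosomes, as 6.25% of the genes of 225 bases or less did. It was at 522 and 447 FPKM in cytoplasm, 3807 and 4277 in monosomes, 1223 and 2884 on light polysomes and 1006 and 493 on heavy polysomes. The monosome libraries were highest, and heavy library 2 lay between the cytoplasmic ones. Its difference between heavy polysomes and cytoplasm was 0.54 (SE 0.39, adjusted p = 0.254), and -0.70 with equal totals and -0.99 with quantile normalization. Without heavy library 2 it was called higher (1.06, adjusted p = 0.0471). Tmsb4x, an actin-binding peptide of 44 codons named here after its values were seen, was at 138 and 232 FPKM in cytoplasm, 399 and 519 in monosomes, 258 and 794 on light polysomes and 84.4 and 77.8 on heavy polysomes. It fell by 1.13 (adjusted p = 0.0447), and the call was lost without heavy library 1 (adjusted p = 0.11), heavy library 2 (0.129) or cytoplasmic library 2 (-0.76, adjusted p = 0.279). Their complete reading frames, from start to stop codon in capitals, come from chr10:128548114-128549305 and chrX:167207093-167209315, both on the minus strand.
Rpl41: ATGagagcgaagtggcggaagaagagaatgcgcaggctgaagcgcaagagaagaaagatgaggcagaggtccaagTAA
Tmsb4x: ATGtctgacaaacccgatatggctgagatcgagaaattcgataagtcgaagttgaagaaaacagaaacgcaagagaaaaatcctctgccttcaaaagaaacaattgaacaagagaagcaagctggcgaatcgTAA
Other short ribosomal protein messages, also named after their values were seen, differed among themselves. Rps29 was at 505 and 461 FPKM in cytoplasm, 1991 and 1345 in monosomes, 1366 and 2532 on light polysomes and 768 and 492 on heavy polysomes. Its difference was 0.35 (adjusted p = 0.377), and -0.89 with equal totals, -0.14 with the median ratio and -1.20 with quantile normalization. Rpl39 was at 62.3 and 53.8 FPKM in cytoplasm, 202 and 253 in monosomes and 78 and 34.7 on heavy polysomes (difference -0.15, adjusted p = 0.738; called lower at -1.37 with equal totals and -1.13 with quantile normalization, and 0.42 without heavy library 2). Rps28, Rpl38 and Rps21, with coding lengths of 207, 210 and 249 bases, were called higher. Rps28 rose by 1.13 (adjusted p = 0.00339) from 251 and 229 to 639 and 435 FPKM, but turned to -0.10 with equal totals and -0.32 with quantile normalization. Rpl38 rose by 1.64 (adjusted p = 0.000199) from 243 and 217 to 859 and 602 FPKM, a call lost with equal totals (adjusted p = 0.0839) and quantile normalization (0.394). Rps21 rose by 2.04 (adjusted p = 0.000167) from 247 and 194 to 1005 and 815 FPKM.

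**Figure D3:**
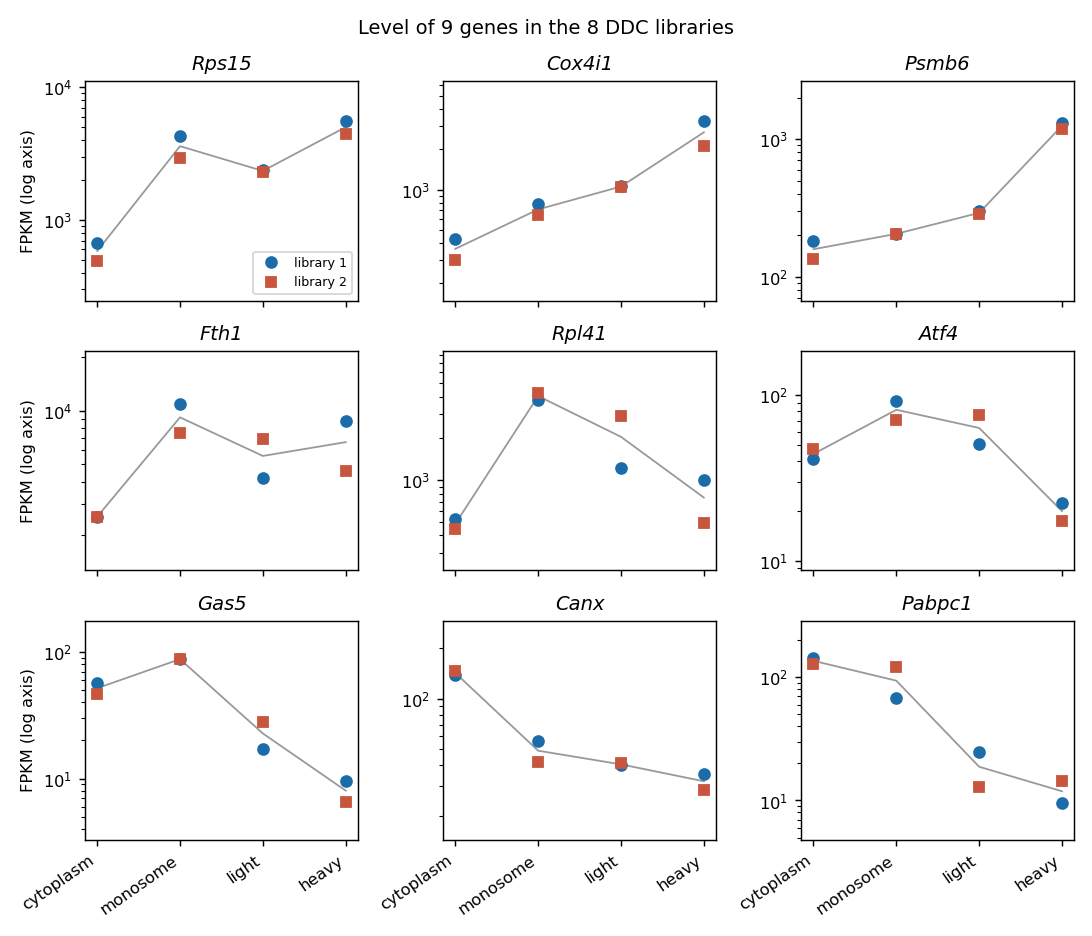
FPKM (log axis) of 9 genes in the 2 libraries of each DDC pool; points are libraries, the grey line joins the means, and library numbers do not pair cytoplasm with the fractions. Rps15, Cox4i1 and Psmb6 are highest on heavy polysomes, Rpl41, Fth1, Atf4 and Gas5 in monosomes, and Canx and Pabpc1 in cytoplasm.

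Messages for mitochondrial energy production rose with few exceptions. Of 77 nuclear genes of the respiratory chain and ATP synthase 71 rose and none fell (median 1.78, and 0.55 with equal totals, under which 37 rose and 6 fell). Cox4i1, a subunit of cytochrome c oxidase, was at 426 and 298 FPKM in cytoplasm, 780 and 646 in monosomes, 1069 and 1043 on light polysomes and 3231 and 2126 on heavy polysomes. It climbed with each step of ribosome number, by 2.88 in all (SE 0.27, adjusted p = 1.62e-05). Atp5d, a subunit of the rotor stalk of ATP synthase, rose by 3.65 from 307 and 215 to 4580 and 2273 FPKM. Atp5g3, which encodes a subunit of the membrane rotor, rose by 2.80 from 198 and 191 to 1624 and 1136 FPKM. These 3 calls held under the 4 scalings. The median coding length of the list was 387 bases, and 23 of its genes were highest on light polysomes against 52 on heavy polysomes, which turned to 36 against 31 with equal totals.

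Of 76 mitochondrial ribosomal protein genes 57 rose and 1 fell (median 1.43, and 0.22 with equal totals). Mrps16 rose by 2.95 from 53 and 40.7 to 441 and 303 FPKM, and Mrps34 by 2.83 from 79 and 59 to 547 and 441 FPKM. The exception, Mrpl18, was at 26.7 and 22.8 FPKM in cytoplasm and 10.6 and 5.83 on heavy polysomes and fell by 1.53 (adjusted p = 0.000517). Messages made inside mitochondria are read there by other ribosomes and do not belong to the cytosolic gradient. One of the 13 protein genes of the mitochondrial genome could be tested. A further 6 were listed at 0 in both libraries of a pool of the comparison while at 100 FPKM or more in other libraries. The others did not pass the filter on low values. That gene, mt-Nd2, was at 6569 and 10090 FPKM in cytoplasm, 5659 and 13570 in monosomes, 1227 and 1750 on light polysomes and 631 and 412 on heavy polysomes. It fell by 3.99 (SE 0.40, adjusted p = 2.09e-05). Together the 13 genes summed to 6570 and 10090 FPKM in cytoplasm and to 10350 and 4634 on heavy polysomes. Nearly all of the cytoplasmic sum was mt-Nd2, while most of the heavy sum came from genes not tested. The fall of mt-Nd2 therefore does not describe the other genes. The mitochondrial ribosomal RNA mt-Rnr1 fell by 3.06, from 1422 and 888 to 159 and 113 FPKM.

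The largest rise among named genes was that of Lars2, the mitochondrial leucyl-tRNA synthetase. It was at 10.2 and 9.17 FPKM in cytoplasm, 156 and 101 in monosomes, 64.6 and 34.3 on light polysomes and 652 and 175 on heavy polysomes. Every gradient library was above both cytoplasmic ones, and heavy polysomes exceeded cytoplasm by 4.99 (SE 0.66, adjusted p = 9.02e-05). The cytosolic ribosomal RNA gene n-R5-8s1 was at 7.32 FPKM and 0 in cytoplasm and at 142 and 57.1 on heavy polysomes, a difference of 4.98 (adjusted p = 0.0142) whose call was lost without heavy library 1 (adjusted p = 0.0903) or cytoplasmic library 2 (3.45, adjusted p = 0.124). In chow n-R5-8s1 was listed at 0 in the libraries of both pools, while Lars2 rose by 4.56. Whether ribosomal RNA reads took part in the Lars2 value was not tested. The other largest rises, in order, were Gnmt (4.11), Ttc36 (4.02), the sugar reductase Dcxr (3.85), Eif4ebp3 (3.76), the RNA exosome subunit Exosc5 (3.68), the mitochondrial nuclease Endog (3.66), Atp5d, the phagocyte receptor Trem2 (3.63), the NADPH oxidase subunit Cyba (3.59) and Hint2 (3.48). Heavy library 1 was higher than heavy library 2 for each of them. The Eif4ebp3 level was 239 FPKM in heavy library 1 and 7.33 in heavy library 2 against 2.81 and 1.84 in cytoplasm; the call fell to a difference of 1.34 (adjusted p = 0.473) without heavy library 1, and to adjusted p = 0.106 and 0.154 without cytoplasmic library 1 or 2. It was not called under the 3 other scalings either (adjusted p = 0.111 with equal totals, 0.0683 with the median ratio and 0.0518 with quantile normalization).

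Proteasome genes rose as a complex. Of 34 subunit genes 26 rose and 1 fell (median 1.46, and 0.23 with equal totals, under which 10 rose and 7 fell), and 32 had their highest mean on heavy polysomes (21 with equal totals, with the other 13 in cytoplasm). Psmb6, a catalytic subunit of the core particle, was at 183 and 134 FPKM in cytoplasm, 205 and 205 in monosomes, 298 and 284 on light polysomes and 1318 and 1179 on heavy polysomes. Both heavy libraries were above every other DDC library, a rise of 2.98 (SE 0.21, adjusted p = 1.2e-05). Psmb5, another catalytic subunit, rose by 2.66 from 29.1 and 21.3 to 173 and 152 FPKM. Psmd1, a long scaffold subunit of the regulatory particle, was the one that fell, by 1.28 (adjusted p = 0.00195), from 16.1 and 19.6 to 5.31 and 8.44 FPKM. Among 50 lysosomal genes 27 rose and 5 fell (median 0.80; -0.41 with equal totals and -0.15 with quantile normalization). The protease Ctsd rose by 2.37 from 458 and 403 to 3144 and 1573 FPKM, and the peptidase Tpp1 fell by 1.26 from 40.6 and 36.8 to 14.7 and 16.4 FPKM.

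Secreted liver proteins divided by message. Of 80 plasma protein genes tested 28 rose and 9 fell (median 0.68; -0.56 with equal totals and -0.72 with quantile normalization), near the background shares of 31.0% and 23.2% on the rising side and below it on the falling side. A further 6 were listed at 0 while abundant elsewhere, and albumin (Alb) was listed at 0 in all libraries, so neither is described. Apoc3, a small apolipoprotein that slows the clearance of triglyceride-rich particles, was at 4036 and 3045 FPKM in cytoplasm and 40640 and 23750 on heavy polysomes. It rose by 3.15 (SE 0.37, adjusted p = 4.56e-05) under all 4 scalings, and no cytoplasmic library came near the heavy ones. The complement subunit C8g rose by 2.55 from 176 and 114 to 1066 and 649 FPKM. Apoa2 rose by 2.29 from 15580 and 8273 to 80570 and 38460 FPKM, and was not called with quantile normalization (0.22, adjusted p = 0.445). Apob, the very large protein around which lipoproteins are built, went the other way. It stood at 668 and 425 FPKM in cytoplasm, 504 and 386 in monosomes, 131 and 173 on light polysomes and 115 and 103 on heavy polysomes and fell by 2.28 (SE 0.26, adjusted p = 3.52e-05). Coagulation factor F5, another very long message, fell by 2.19 from 22.6 and 20.5 to 4.39 and 3.55 FPKM.

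Endoplasmic reticulum genes leaned to cytoplasm: of 39 chaperone and translocon genes 18 fell and 6 rose (median -0.45, and -1.64 with equal totals). Canx, the membrane chaperone calnexin, was at 139 and 146 FPKM in cytoplasm, 56 and 41.9 in monosomes, 40 and 41.1 on light polysomes and 35.8 and 28.5 on heavy polysomes. Each gradient pool was below cytoplasm, and the fall on heavy polysomes was by 2.12 (SE 0.22, adjusted p = 2.43e-05). Its soluble relative Calr was at 1645 and 1595 FPKM in cytoplasm and at 533 and 984 on heavy polysomes and fell by 1.16 (adjusted p = 0.0207). It was not called without heavy library 1 (-0.72, adjusted p = 0.191), cytoplasmic library 1 (0.0782) or cytoplasmic library 2 (0.0742). P4hb, the protein disulfide isomerase, was at 697 and 622 against 626 and 690 FPKM, a difference of 0.00 with overlapping groups (adjusted p = 0.995), which was called lower with equal totals (-1.24, adjusted p = 0.000287) and quantile normalization (-1.51, adjusted p = 0.000214). Among those that rose was Dad1, a subunit of the sugar-transferring complex, by 2.07, from 174 and 132 to 644 and 635 FPKM, and the translocon subunit Sec61b, by 1.90 (adjusted p = 0.0502 with equal totals and 0.0685 with quantile normalization).

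Metabolic enzymes also divided within their pathways. The shares over all genes were 31.0% rising and 23.2% falling. For fatty acid oxidation 14 of 32 genes rose and 6 fell (median 0.45; -0.78 with equal totals, -0.03 with the median ratio and -0.66 with quantile normalization). Etfb, which passes electrons from the oxidation steps to the respiratory chain, was at 241 and 193 FPKM in cytoplasm and 1760 and 1423 on heavy polysomes, a rise of 2.87. Acads, the dehydrogenase of short chains, rose by 2.87 from 42.2 and 35.2 to 364 and 227 FPKM. Cpt1a, which admits fatty acids to mitochondria, fell by 2.10 (SE 0.35, adjusted p = 0.000389) from 21.2 and 15.3 to 2.79 and 4.16 FPKM, and Acsl1, which activates them, fell by 2.05. Of 32 cholesterol and fatty acid synthesis genes 11 fell and 6 rose (median -0.54). With single libraries left out the median ran from -0.28 to -0.47. Scd1, the desaturase, was at 1683 and 889 FPKM in cytoplasm and at 55.9 and 242 on heavy polysomes and fell by 3.38 (adjusted p = 0.00561), a call lost without heavy library 1 (-2.33, adjusted p = 0.0756). The elongases Elovl6 and Elovl5 fell by 2.37 and 2.65, the latter not called without heavy library 1 (-1.77, adjusted p = 0.0721). Pmvk, a small kinase of the mevalonate route, rose by 2.37 from 75.1 and 62 to 391 and 325 FPKM.

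Of 45 urea cycle and amino acid genes 23 rose and 2 fell (median 1.24, and -0.0018 with equal totals). Besides Gnmt, the dehydratase Sdsl rose by 3.22 from 11.2 and 10 to 136 and 85.1 FPKM, and Haao, an enzyme of tryptophan breakdown, by 2.66 from 95.8 and 75.2 to 689 and 425 FPKM. Ass1, which forms argininosuccinate in the urea cycle, rose by 1.60 from 1065 and 1028 to 3863 and 2592 FPKM, and was not called with equal totals (0.36, adjusted p = 0.226) or quantile normalization (0.30, adjusted p = 0.314). Slc25a15, the mitochondrial ornithine carrier, fell by 1.29 from 69.3 and 61.9 to 24.5 and 28 FPKM. Of 22 sugar enzymes 15 rose and 1 fell (median 1.08, and -0.05 with equal totals). Tpi1 rose by 2.63 from 273 and 271 to 1705 and 1677 FPKM. Of 48 cytochrome P450 genes 8 rose and 4 fell, below the background in both directions; their median of 0.28 turned to -0.83 with equal totals, -0.11 with the median ratio, -0.21 with quantile normalization and -0.18 without heavy library 1. Cyp2d10 rose by 1.97 from 217 and 135 to 897 and 508 FPKM (adjusted p = 0.0539 with equal totals and 0.109 with quantile normalization). Cyp51, the sterol demethylase, fell by 1.83 from 79.5 and 53.9 to 12.2 and 25.7 FPKM.

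Iron and heme genes bear on the diet, since DDC is known to hinder heme synthesis at ferrochelatase. Of 33 genes tested 13 rose and 7 fell (median 0.43, with -0.67 at equal totals and -0.0028 with the median ratio). Over all genes 31.0% rose and 23.2% fell, so the falls were near that share and the rises somewhat above it. Fth1, the ferritin heavy chain, was at 2532 and 2545 FPKM in cytoplasm, 10860 and 7520 in monosomes, 4206 and 6945 on light polysomes and 8721 and 4613 on heavy polysomes. Monosomes held the highest mean, and the heavy libraries were above cytoplasm by 1.32 (SE 0.37, adjusted p = 0.00918). That call was lost with equal totals (0.08, adjusted p = 0.83), with the median ratio (0.83, adjusted p = 0.0565), with quantile normalization (0.09, adjusted p = 0.855) and without heavy library 1 (0.86, adjusted p = 0.0953). Ftl1, the light chain, had the same shape at 3471 and 3076 FPKM in cytoplasm, 12640 and 9743 in monosomes, 4630 and 7457 on light polysomes and 12410 and 6614 on heavy polysomes. Its difference was 1.47 (adjusted p = 0.00484), again not called with equal totals (0.23, adjusted p = 0.497), quantile normalization (0.36, adjusted p = 0.512) or without heavy library 1 (1.02, adjusted p = 0.0513). Slc40a1, the iron exporter, named after its values were seen, stood at 20.2 and 31.7 against 17.4 and 20.7 FPKM (difference -0.40, adjusted p = 0.337), and was called lower with equal totals (-1.59, adjusted p = 0.00319) and quantile normalization (-0.99, adjusted p = 0.0445).

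These 3 messages share an iron-responsive element in the 5′ UTR, which the iron-regulatory proteins bind when iron is scarce. The element was sought as a C followed by a stem of 5 pairs, G with T allowed, closing a loop of 6 bases that begins with CAGTG. This pattern was found in the 5′ UTR of 13 of 8497 coding genes (0.153%). Tfrc, which brings iron into the cell, has 4 copies in its transcript. The elements are shown with the loop in capitals, from chr19:9980598-9985098 (plus, Fth1), chr7:45457944-45459884 (minus, Ftl1), chr1:45908068-45926523 (minus, Slc40a1) and chr16:32608920-32632794 (plus, Tfrc).
Fth1: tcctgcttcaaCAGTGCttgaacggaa
Ftl1: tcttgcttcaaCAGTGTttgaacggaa
Slc40a1: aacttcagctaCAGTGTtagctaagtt
Tfrc: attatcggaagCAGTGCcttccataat
Tfrc was low, at 4.88 and 2.6 FPKM in cytoplasm and 0.395 and 1.18 on heavy polysomes and fell by 1.40 (adjusted p = 0.00479), not called without heavy library 1 (adjusted p = 0.0568) or cytoplasmic library 1 (0.0576). Within heme synthesis Alad, the enzyme that forms porphobilinogen, rose by 2.73 (SE 0.26, adjusted p = 1.71e-05) from 227 and 146 to 1271 and 1157 FPKM, and Urod by 2.17 from 33.3 and 24 to 137 and 125 FPKM. Cpox, the coproporphyrinogen oxidase, was at 29 and 29.9 FPKM in cytoplasm and 2.64 and 4.71 on heavy polysomes and fell by 2.74 (SE 0.33, adjusted p = 5.26e-05). Neighbouring steps of the route were thus on opposite sides under all 4 scalings. Fech, ferrochelatase itself, was at 14.1 and 17.1 against 21 and 15.9 FPKM, a difference of 0.23 with overlapping groups (adjusted p = 0.512) that turned to -0.95 with equal totals, -0.24 with the median ratio and -0.25 with quantile normalization. The hormone Hamp, hepcidin, rose by 2.22 from 5281 and 4543 to 30970 and 16740 FPKM.

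The list of stress messages, named for upstream reading frames, was spread over the gradient. Its members were not checked for upstream start codons, which were sought only in Atf4. Oaz1, with an annotated 5′ UTR of 7 bases, and Eif4ebp1 were also members and among its rises. Over all genes 31.0% rose and 23.2% fell. Of 24 genes 4 rose and 8 fell (median -0.07, and -1.21 with equal totals), and of 18 at 10 FPKM or more 2 had their highest mean on heavy polysomes, 7 on light polysomes, 5 in monosomes and 4 in cytoplasm (0, 6, 6 and 6 with equal totals). Atf4, the transcription factor of the integrated stress response, was at 41.1 and 47.2 FPKM in cytoplasm, 92.7 and 70.7 in monosomes, 50.6 and 76.2 on light polysomes and 22.4 and 17.4 on heavy polysomes. Monosomes were highest and heavy polysomes lowest, with no overlap between heavy polysomes and cytoplasm, and Atf4 fell by 1.12 (SE 0.26, adjusted p = 0.00352) under all 4 scalings. Its 5′ leader holds 3 upstream start codons in the annotated transcript. The shortest upstream frame has 3 codons and is shown with its start and stop codon in capitals (bases 390 to 419, gene at chr15:80255184-80257541, plus strand).
Atf4: gcggccaccATGgcgtatTAGaggcagcag
Odc1, which makes putrescine, was at 17.6 and 19.3 FPKM in cytoplasm, 86.9 and 52.9 in monosomes, 60.8 and 63.7 on light polysomes and 15.3 and 22 on heavy polysomes. Heavy polysomes and cytoplasm overlapped (difference -0.0038, adjusted p = 0.992; called lower with equal totals, at -1.18, adjusted p = 0.00679), and the monosome and light polysome libraries were above both. Oaz1, the antizyme that inhibits Odc1 and is read with a frameshift, was highest on light polysomes at 1229 and 1767 FPKM, against 247 and 210 in cytoplasm and 634 and 426 on heavy polysomes. It rose by 1.19 (adjusted p = 0.00242), with signs turned to -0.05 with equal totals and -0.26 with quantile normalization. Ddit3 was at 9.05 and 12 against 11.8 and 9.05 FPKM (difference -0.01, adjusted p = 0.98; called lower with equal totals, at -1.16, adjusted p = 0.018). Eif4ebp1, which restrains cap-dependent initiation, rose by 1.82 from 25.1 and 27.7 to 118 and 76.8 FPKM (adjusted p = 0.0529 with equal totals). Ppp1r15b and Azin1 fell by 1.79 and 2.20.

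Of 35 NRF2 target and glutathione genes 18 rose and 5 fell (median 1.39, and 0.16 with equal totals). Prdx6, a peroxidase, rose by 2.10 from 205 and 158 to 917 and 657 FPKM. Gsr, glutathione reductase, was at 47.8 and 44.8 FPKM in cytoplasm and 17.3 and 18.6 on heavy polysomes and fell by 1.32 (adjusted p = 0.000249). Abcc2, the pump that moves conjugated bilirubin into bile, had a larger fall, by 3.55 (SE 0.30, adjusted p = 1.2e-05), from 116 and 89.2 to 7.23 and 8.28 FPKM, with monosomes at 48.5 and 60.9 and light polysomes at 24.9 and 16.9. The uptake transporter Slco1b2, on the opposite face of the hepatocyte, fell by 3.12 from 66 and 45.2 to 4.46 and 6.48 FPKM. Pigr, which carries immunoglobulin A into bile, fell by 3.25 (SE 0.87, adjusted p = 0.00733). These 3 falls were called under all 4 scalings. The remaining largest falls were in Nrn1 (3.01), Cald1 (2.70), the ubiquitin ligase Rnf128 (2.63) and the chemokine Cxcl1.

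Lists of gene regulators had medians below that of all genes. SR and hnRNP splicing factors had 15 of 43 lower and none higher (median -0.56), and with equal totals 40 lower. Chromatin regulators had 25 of 38 lower and 1 higher (median -0.87), and liver transcription factors 12 of 37 lower and 9 higher (median -0.36). The shares over all genes were 23.2% lower and 31.0% higher, from which liver transcription factors lay less far than the other lists. Mbnl2, a splicing regulator, fell by 2.34 from 8.31 and 8.47 to 0.699 and 1.02 FPKM. Hnrnpa2b1 was at 274 and 304 FPKM in cytoplasm and 88.6 and 192 on heavy polysomes and fell by 1.14 (adjusted p = 0.0181). It was not called without heavy library 1 (-0.58, adjusted p = 0.214), cytoplasmic library 1 (0.0534) or cytoplasmic library 2 (0.0903). The exception among chromatin genes was the histone methyltransferase gene Ehmt2, higher by 1.55 (37 and 25.3 against 113 and 74 FPKM) and not called with equal totals (0.33, adjusted p = 0.288). Hnf4a, a master regulator of hepatocyte genes, fell by 1.15 (adjusted p = 0.00466) from 71.6 and 83.8 to 31.7 and 37.5 FPKM, and the glucocorticoid receptor Nr3c1 by 1.82 from 5.09 and 4.8 to 0.668 and 0.702 FPKM.

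Of 36 immediate early and short-lived regulator genes 9 fell and 4 rose (median -0.20). The falls were near the share over all genes (23.2%) and the rises below it (31.0%). At 10 FPKM or more, 12 of 25 were highest in monosomes, against 747 of 5086 over all genes. Cxcl1 was at 83.5 and 116 FPKM in cytoplasm, 84.3 and 111 in monosomes, 30.7 and 63.6 on light polysomes and 11.2 and 20.4 on heavy polysomes. Its level fell from monosomes to heavy polysomes, and the difference to cytoplasm was -2.63 (SE 0.40, adjusted p = 0.000206). The coding length of Cxcl1 is 288 bases. Zfp36l1, which binds AU-rich messages and speeds their decay, fell by 2.15 from 23 and 39.2 to 4.79 and 7.48 FPKM. Id3, an inhibitor of helix-loop-helix factors, rose by 2.14 from 62.2 and 65.1 to 313 and 258 FPKM, whereas its relative Id2 was at 262 and 224 against 222 and 259 FPKM (difference -0.02, adjusted p = 0.968; called lower at -1.25 with equal totals and -1.40 with quantile normalization). The AU-rich motif TATTTAT occurs 6 times in the Cxcl1 message and 3 times in that of Zfp36l1. A stretch of each 3′ UTR is shown with the motif in capitals (chr5:90891241-90893115, plus strand, and chr12:80107754-80113013, minus strand).
Cxcl1: ccTATTTATTTATgTATTTATTTATtccac
Zfp36l1: cgTATTTATtgccaaactatgctttttttg
Of 8360 coding genes with a 3′ UTR of 30 bases or more, 1870 (22.4%) held this motif on the sense strand. Their median was -0.58, against 0.36 for genes without it, but their 3′ UTRs were longer (median 1646 against 605 bases). Within 3′ UTRs of up to 400 bases the medians were 0.70 and 1.10, from 400 to 1600 bases -0.30 and 0.21, and above 1600 bases -0.89 and -0.62.

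Long noncoding RNAs, which have no long reading frame to hold ribosomes, were low on heavy polysomes. Of 24 tested 12 fell and 1 rose (median -1.19), and 9 of 11 at 10 FPKM or more were highest in monosomes. Gas5, a host of small nucleolar RNAs with a TOP start, was at 57.1 and 46.3 FPKM in cytoplasm, 88.2 and 87.3 in monosomes, 17.2 and 28.2 on light polysomes and 9.55 and 6.5 on heavy polysomes. It fell by 2.56 (SE 0.28, adjusted p = 2.93e-05) with no overlap. H19, an imprinted RNA of the fetal liver, fell by 3.56 from 36.6 and 22.5 to 1.29 and 1.79 FPKM. The nuclear RNAs Neat1 and Malat1 fell by 2.36 and 2.06 (adjusted p = 0.000958 and 0.00626), with Malat1 at 4.14 and 4.94 FPKM in cytoplasm. The share of FPKM in transcripts annotated as processed, without a coding frame, was 4.26% and 4.00% in cytoplasm and 2.41% and 2.35% on heavy polysomes. Transcripts annotated for nonsense-mediated decay took 2.07% and 2.05% against 2.21% and 1.87%, so those groups overlapped.

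Messages on the falling side had long 3′ UTRs and long transcripts. In 8497 coding genes with the features annotated, the rank correlation across genes with the difference was -0.557 for 3′ UTR length, -0.560 for transcript length, -0.287 for coding length and -0.199 for 5′ UTR length. It was 0.445 for the GC content of the 3′ UTR and 0.392 for GC at the third codon position. For the cytoplasmic level it was 0.183, and -0.231 with quantile normalization and 0.324 in chow. Above 100 FPKM in cytoplasm 59.0% of genes were called higher, against 14.3% from 1 to 2 FPKM and 56.5% up to 1 FPKM. Gene lists were not matched to other genes by level. Genes are not independent replicates, and these features also vary with each other. Genes with a 3′ UTR of at most 100 bases had a median difference of 1.33, and 62.4% of them were called higher. Above 3200 bases the median was -0.85, and 59.8% were called lower. Split by length and base composition together, a 3′ UTR of up to 400 bases with over 50% GC went with a median of 1.54, one of up to 400 bases with at most 40% GC with 0.33, and one above 1600 bases with at most 40% GC with -1.11. The order by 3′ UTR length also held with equal totals (0.27 down to -1.62). The value of 1 fragment per kilobase, heavy polysomes over cytoplasm, was 2.78 for transcripts of 300 to 600 bases and 2.72 above 1200 bases, so it moved little with length.

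**Figure D4:**
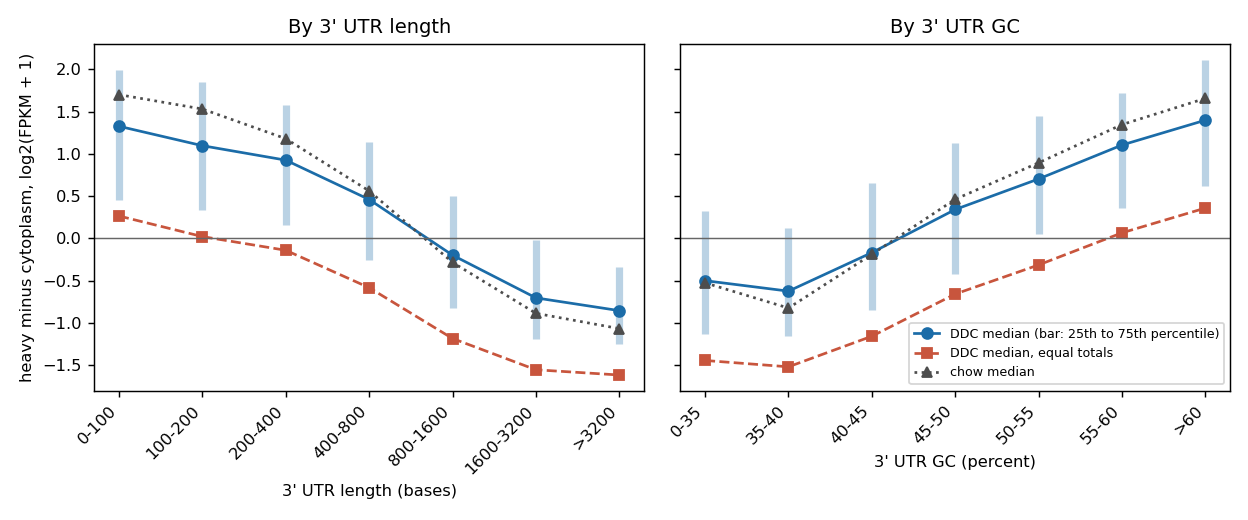
Median difference between heavy polysomes and cytoplasm (log2(FPKM + 1)) by 3′ UTR length in bases (left) and 3′ UTR GC content in percent (right), in DDC as deposited with the 25th to 75th percentile, in DDC with equal totals, and in chow. Medians fall from 1.33 to -0.85 with 3′ UTR length and rise with GC content in each of the 3 series.

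Genes of injury, the cytoskeleton and the cell cycle were mixed. Of 48 keratin and cytoskeleton genes 23 rose and 11 fell (median 0.84; -0.25 with equal totals and -0.19 with quantile normalization). Myl6, a myosin light chain, rose by 2.71 from 487 and 430 to 3412 and 2628 FPKM, and Myh9, the heavy chain of the same motor, fell by 2.55 from 12.4 and 10.8 to 0.708 and 1.71 FPKM. Krt8, the partner of Krt18 in hepatocyte filaments, was at 1161 and 830 against 1608 and 3239 FPKM (difference 1.22, adjusted p = 0.0225), with signs turned to -0.02 with equal totals and -0.22 with quantile normalization. It was not called with the median ratio (0.73, adjusted p = 0.132), with the libraries of the contrast alone (0.0557), without heavy library 2 (0.71, adjusted p = 0.198) or cytoplasmic library 2 (0.97, adjusted p = 0.147). Krt18 differed by 0.35 (adjusted p = 0.624), and by -0.89 with equal totals, -0.14 with the median ratio, -1.04 with quantile normalization and -0.49 without heavy library 2. Ly6d differed by 0.74 (adjusted p = 0.649), and by -0.50 with equal totals, -0.48 with quantile normalization and -0.34 without heavy library 2. Lcn2 differed by 1.80 (adjusted p = 0.199), and was called with the libraries of the contrast fitted alone (adjusted p = 0.0278). For all 3 genes the heavy libraries differed among themselves. Of 37 mitosis genes 11 rose and 7 fell. Their median was 0.06, or -0.79 with equal totals, -0.29 with the median ratio and -0.03 without cytoplasmic library 2. Of 41 replication genes 12 rose and 4 fell (median 0.55, and -0.54 with equal totals). The replication median ran from 0.30 to 0.77 when single libraries were left out. Over all genes 31.0% rose and 23.2% fell. The mitosis and replication lists were near the rising share and below the falling one. Cytoskeleton genes were near the falling share and above the rising one. The securin gene Pttg1 rose by 2.51 from 8.88 and 7.79 to 56.1 and 48.3 FPKM. Mki67, the proliferation marker with a coding length of 9531 bases, fell by 1.91 (adjusted p = 9.74e-05) from 4.61 and 3.22 to 0.237 and 0.35 FPKM. Ccnd1, cyclin D1, was at 83.6 and 92.8 against 37 and 29.9 FPKM (difference -1.38, adjusted p = 0.0959). It was called lower with equal totals (-2.60, adjusted p = 0.00451), the median ratio (-1.86, adjusted p = 0.0315), quantile normalization (-2.40, adjusted p = 0.0121) and the libraries of the contrast alone (adjusted p = 0.00585).

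Markers of other liver cells were measured beside these groups. Of 10 hepatocyte markers tested 5 rose and 1 fell (median 0.87; -0.37 with equal totals and -0.43 with quantile normalization); Ttr rose by 2.03 from 3204 and 1965 to 12410 and 8473 FPKM. Of 19 macrophage markers 13 rose and 1 fell, with a median of 2.01, and their sum was 856 and 1258 FPKM in cytoplasm and 7003 and 5724 on heavy polysomes. C1qa and C1qb, complement subunits made by macrophages, rose by 3.24 and 3.27, the former from 90.9 and 132 to 1089 and 996 FPKM. The exception, Mpeg1, fell by 1.33 from 39.5 and 46.4 to 14.2 and 18.9 FPKM. Endothelial markers had 5 of 10 higher and 1 lower, with sums of 52.5 and 71 FPKM against 266 and 160, and Clec4g rose by 2.28. Ductal markers had 2 of 9 higher and 1 lower (sums of 464 and 348 against 560 and 620 FPKM), and stellate cell markers 3 of 16 higher and 4 lower. Over all genes 31.0% were higher and 23.2% lower, and the endothelial, ductal and stellate lists are short. Spp1, a ductal marker, was at 104 and 67.2 FPKM in cytoplasm and at 15.3 and 82 on heavy polysomes, with overlap, and was called lower with equal totals (-2.41, adjusted p = 0.0278). Cytoplasm and fractions came from different preparations, and fewer cells of a type and less RNA per cell cannot be told apart in such samples; the part of other cells in the gene lists was not tested.

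The same comparison in chow, which shares no library with that in DDC, called 3269 of 9625 genes higher (34.0%) and 2731 lower (28.4%). Among 8883 genes tested in both diets, 2794 were called higher in DDC, and 2482 of them (88.8%, or 78.1% of the chow calls) were also higher in chow. Of 2113 called lower in DDC 1791 (84.8%, or 75% of the chow calls) were lower in chow, and 5 genes were called in opposite directions. Side by side, Rps15 differed by 3.10 in DDC and 2.97 in chow, Psmb6 by 2.98 and 3.64, Fth1 by 1.32 and 1.36, Atf4 by -1.12 and -1.08, Pabpc1 by -3.43 and -2.44, Gas5 by -2.56 and -3.40, and mt-Nd2 by -3.99 and -4.01. List medians in DDC and chow were 1.59 and 1.46 for the small ribosomal subunit, 1.78 and 2.36 for the respiratory chain, -0.45 and 0.13 for endoplasmic reticulum genes, 0.68 and 1.33 for plasma proteins, and 1.24 and 0.38 for urea cycle and amino acid genes. No gene of the last 3 lists was called for the difference between diets. The rank correlation with 3′ UTR length was -0.606 in chow.

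**Figure D5:**
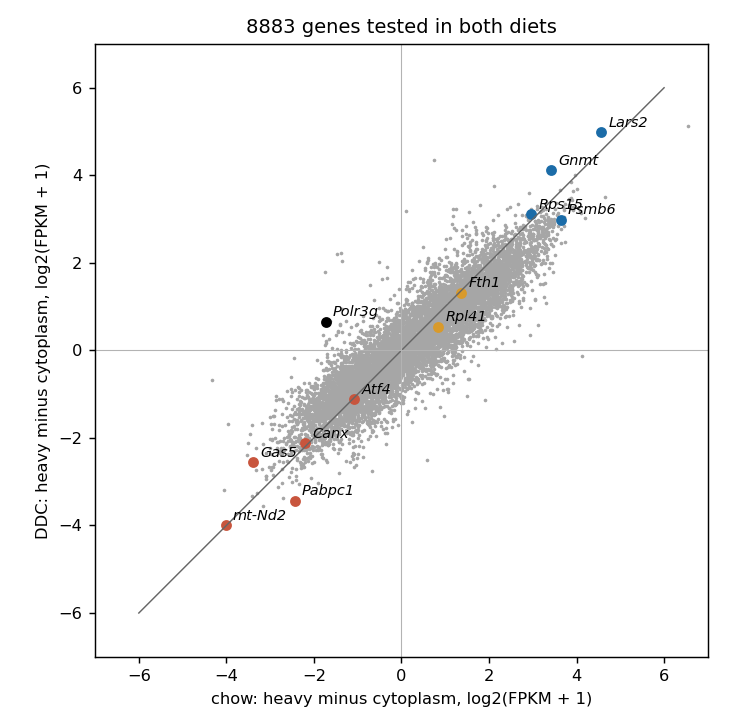
Difference between heavy polysomes and cytoplasm (log2(FPKM + 1)) in DDC (y axis) against chow (x axis) for 8883 genes tested in both diets, one point a gene, with named genes coloured; the diagonal marks equal values. Most genes lie along the diagonal, and Polr3g lies to the upper left of it.

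The difference between the diets was itself tested in 10965 genes by the interaction term of the same model, and 15 (0.137%) were called: 10 (0.0912%) more positive in DDC and 5 (0.0456%) more negative. At an unadjusted p under 0.05 there were 1367. Of the 15, 12 had no group mean of 10 FPKM or more. The one that reached 50 FPKM was Serpina12, an adipokine-like serpin, at 18.5 and 13.9 FPKM in chow cytoplasm and 113 and 107 on chow heavy polysomes, but at 0.39 and 0.138 in DDC cytoplasm and 0.957 and 0.586 on DDC heavy polysomes (difference between diets -2.21, adjusted p = 0.0187). In DDC it stayed under 1 FPKM in all 4 of these libraries. With a pseudocount of 0.1 it was not called in the same model (-1.45, adjusted p = 0.392). Its call was lost with equal totals (adjusted p = 0.289), with the median ratio (0.0574), with quantile normalization (0.284) and when any of 5 of the 8 libraries was left out, CHOW cytoplasm library 1 among them (0.0602). A gene not called here is not shown to behave alike in both diets.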

How the data were processed

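The deposited values are FPKM per transcript made by the authors with Cuffnorm, although the deposited file calls them counts: the values are not whole numbers, and library totals differ. Per the submitters' processing notes the tools included Cuffnorm, STAR 2.4.2a and Trimmomatic, on GRCm38 (mm10); Cuffnorm options are not given in the sources used here. Per the labels' protocols, libraries were made with a stranded kit for polyadenylated RNA.

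Transcripts were joined to genes of GENCODE M21 (116728 of 117567, 99.29%; those unmatched held at most 0.509% of a library's FPKM), and FPKM were summed by gene (48158 genes). The filter kept 10111 genes that reached 1 FPKM in 2 of the 4 libraries. For 10 of them a group was listed at 0 throughout although other libraries held 100 FPKM or more; these were taken as missing and not tested. The means of 8 groups were estimated with limma 3.58.1 (R 4.3.3) from log2(FPKM + 1) of all 16 libraries (8 residual and 4.569 prior degrees of freedom, variance trend), adjusted by Benjamini-Hochberg over all genes tested, and was tested on simulated data. The 3 comparisons were heavy polysomes against cytoplasm in DDC, in chow, and the difference between both. Sequencing depth cannot be read from scaled FPKM.

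Genes named are the called genes with the 12 highest and 12 lowest differences, provided that replicates do not overlap and 1 group averages 50 FPKM or more, the 2 called members with the lowest p in each direction and the 2 most abundant members of each of 28 gene lists and 8 marker lists, as far as the text uses them, and 24 fixed genes; others are marked as named after their values were seen. The members, lists and genes were chosen with earlier results of these data known, and lists are described by counts and medians without a test. Coding and UTR lengths are those of the most abundant annotated transcript. Sequences were read from the GENCODE M21 transcripts. Alternatives were pseudocounts of 0.1 and 5, no filter or one of 5 FPKM, 3 other scalings, the contrast's libraries alone, a replicate block, library weights, values listed at 0 taken as 0, and each library left out.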

Additional observations from a re-analysis of the deposited data

Results flagged for a closer look

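In 4 named genes the difference between heavy polysomes and cytoplasm was itself different between the diets by the interaction term of limma (Benjamini-Hochberg adjusted over 10965 genes, 2 libraries a group). Serpina12 differed by -2.21 (adjusted p = 0.0187), H19 by -3.51 (adjusted p = 0.00811), the mitosis gene Hmmr by -1.44 (adjusted p = 0.0247) and Polr3g, a subunit of RNA polymerase III, by 2.38 (adjusted p = 0.0211). H19 and Hmmr were nearly silent in chow, with H19 at 0.0278 and 0.0347 FPKM in chow cytoplasm and 0 on chow heavy polysomes. Where a gene is near 0 FPKM in 1 diet, log2(FPKM + 1) keeps its difference there near 0. Level and ribosome loading then cannot be told apart. With a pseudocount of 0.1 the limma calls of H19, Hmmr and Serpina12 were lost (adjusted p = 0.2185, 0.2446 and 0.392). Polr3g, named after its values were seen, was at 2.98 and 2.83 FPKM in chow cytoplasm and 0.24 and 0.116 on chow heavy polysomes, against 1.07 and 0.947 in DDC cytoplasm and 2.45 and 1.89 on DDC heavy polysomes. Single libraries ended these calls: without CHOW cytoplasm library 1 the adjusted p was 0.0602 for both H19 and Serpina12. Leaving out any of 5 of the 8 libraries ended the call of Serpina12, and any of 6 those of Hmmr and Polr3g. A replicate block in limma also ended the call of Hmmr (adjusted p = 0.0535). Fitted to these 8 libraries alone, none of the 4 genes was called (adjusted p = 0.063 for H19, 0.0679 for Polr3g, 0.139 for Serpina12 and 0.162 for Hmmr). Serpina12 was not called under the other scalings either, at -1.08 with equal totals (adjusted p = 0.289), -1.71 with the median ratio (0.0574) and -0.97 with quantile normalization (0.284).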

How the results depend on the processing

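The counts of called genes in DDC kept within 1.5 times of 5476 in every alternative run, and leaving out each library gave 3942 to 5141. The split by direction did not: with equal totals 878 genes were higher and 5234 lower (chow 900 and 5490), with the median ratio chow had 2136 higher, and a filter at 5 FPKM left 1129 lower in DDC and 1307 in chow, with fewer genes tested. Without the 4 chow libraries numbered 1, chow had 3943 calls, 2095 of them higher. Cytoplasm and fractions of DDC share a number but no preparation name (correlation of replicate differences 0.161), so the pairing is not one of the design. In chow the cytoplasmic names CH1 and CH3 recur in the heavy polysome names CH1_CH2 and CH3_CH4 (correlation 0.514). The main fits for chow and for the difference between diets did not use this pairing. A replicate block gave 6006 calls in DDC, 6485 in chow and 11 for the difference between diets.

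The 15 calls (10 higher, 5 lower) for the difference between diets became 5 (5 and 0) with a pseudocount of 0.1, 78 (53 and 25) with one of 5, 55 (31 and 24) without a filter, 5 (3 and 2) at 5 FPKM, 47 (17 and 30) with equal totals, 11 (6 higher) with the median ratio, 1 (1 and 0) on the contrast's libraries alone, 27 (18 and 9) with values listed at 0 taken as 0, and 7 (4 and 3) without the chow libraries numbered 1. Leaving out single libraries gave 3 to 45, with 3 to 37 higher and 0 to 8 lower: 45 without DDC heavy library 2, 7 without DDC cytoplasm library 2, 9 without CHOW heavy library 2, and 3 and 6 without CHOW cytoplasm libraries 1 and 2. The cause was not tested.

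Among the results of 129 named genes under 15 alternatives, 1792 kept direction and their side of the threshold, 71 lost the call, 22 gained it and 44 changed sign, called or not. With equal totals the values that changed sign were -0.70 (Rpl41), -0.10 (Rps28), -0.73 (Eef1a1), -0.50 (Ly6d), -0.89 (Krt18), -0.89 (Rps29), -0.094 (Rps24), -0.092 (Eef2), -0.86 (Tpt1), -0.95 (Fech), -0.051 (Oaz1), -0.024 (Krt8) and -0.093 (Polr3g). With the median ratio they were -0.14 (Rps29), -0.12 (Tpt1), -0.24 (Fech) and -0.14 (Krt18). With quantile normalization they were -0.32 (Rps28), -0.19 (Cox8a), -0.77 (Eef1a1), -0.25 (Fech), -0.48 (Ly6d), -1.04 (Krt18), -0.99 (Rpl41), -1.20 (Rps29), -0.34 (Rps24), -0.32 (Eef2), -1.10 (Tpt1), -0.26 (Oaz1) and -0.22 (Krt8). List medians that turned negative with equal totals were those of further TOP messages (-0.55), initiation factors (-0.44), synthetases (-0.38), plasma proteins (-0.56), P450 enzymes (-0.83), fatty acid oxidation (-0.78), urea cycle and amino acids (-0.0018), sugar enzymes (-0.045), iron and heme (-0.67), cytoskeleton (-0.25), mitosis (-0.79), replication (-0.54), lysosome (-0.41) and hepatocyte markers (-0.37). With the median ratio these were P450 enzymes (-0.11), fatty acid oxidation (-0.032), iron and heme (-0.0028) and mitosis (-0.29). With quantile normalization they were further TOP messages (-0.57), initiation factors (-0.058), plasma proteins (-0.72), P450 enzymes (-0.21), fatty acid oxidation (-0.66), cytoskeleton (-0.19), lysosome (-0.15) and hepatocyte markers (-0.43). Leaving out single DDC libraries changed the sign of 8 genes that were not called, which ranged from -0.72 to 0.42 (Rpl39), -0.083 to 0.079 (P4hb), -0.20 to 0.17 (Ddit3), -0.25 to 0.24 (Odc1), -0.13 to 0.095 (Id2), -0.34 to 1.83 (Ly6d), -0.49 to 1.19 (Krt18) and -0.42 to 0.40 (Selenow).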

Other observations

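Both metallothionein genes (coding length 183 bases), named here with Cox8a and Selenow after their values were seen, had their highest levels on light polysomes. Mt1, whose product binds zinc and copper, was at 391 and 776 FPKM in cytoplasm, 3910 and 3090 in monosomes, 7299 and 5689 on light polysomes and 3808 and 1511 on heavy polysomes. Its relative Mt2 was at 181 and 495, 2071 and 1807, 3639 and 2985, and 1318 and 655 FPKM in the same order. Every gradient library was above both cytoplasmic libraries for each of these 2 genes, and heavy polysomes exceeded cytoplasm by 2.12 for Mt1 (adjusted p = 0.00484 in limma) and 1.63 for Mt2 (adjusted p = 0.0317). Both calls were lost with equal totals (0.88 and 0.39, adjusted p = 0.157 and 0.583) and quantile normalization (adjusted p = 0.34 and 0.838), and that of Mt2 with the median ratio (adjusted p = 0.118). They were also lost without heavy library 1 (adjusted p = 0.0636 for Mt1 and 0.218 for Mt2) or cytoplasmic library 1 (0.055 and 0.281). The respiratory chain subunit gene Cox8a also had its highest values there. It was at 409 and 353 FPKM in cytoplasm, 1129 and 1066 in monosomes, 2573 and 2701 on light polysomes and 1257 and 739 on heavy polysomes. The selenoprotein gene Selenow had its highest values in monosomes, at 433 and 455 FPKM, against 122 and 96.7 in cytoplasm, 172 and 333 on light polysomes and 144 and 80.9 on heavy polysomes (heavy minus cytoplasm -0.01, adjusted p = 0.981; -1.24 with equal totals, adjusted p = 0.00081). The order of the pools was not tested.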
